A study of Homo sapiens with 4 samples.

Results

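The platelet integrin genes ITGA2B and ITGB3 and 8 other integrin genes (ITGA2, ITGA4, ITGA5, ITGA6, ITGAV, ITGB1, ITGB2 and ITGB5) were followed in K562 cells expressing RUNX1::ERG. They are 10 of the 26 human integrin subunit genes and 10 of the 25702 genes counted. The 10 genes were chosen by name with the difference between RUNX1::ERG and the empty vector already in view, above all the rise of ITGA2B and ITGB3. Their differences between the groups are therefore given as a description, with a standard error (SE) and without a p-value. Integrins are receptors made of 1 alpha and 1 beta chain that span the plasma membrane and hold cells to the matrix or to each other. The pair encoded by ITGA2B (glycoprotein IIb, CD41) and ITGB3 (glycoprotein IIIa, CD61) is the fibrinogen receptor of platelets and an early surface marker of the megakaryocytic lineage. A resting integrin binds ligand poorly until talin and a kindlin engage its beta tail from inside the cell, and bound ligand then signals inwards through SRC family kinases.

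K562 is an established cell line from a chronic myeloid leukemia with erythroid and megakaryocytic potential. The cells were transfected by nucleofection with the lentiviral plasmid LeGO-iG2, which co-expresses green fluorescent protein, either empty or carrying RUNX1::ERG, a fusion of the Runt and Ets DNA-binding domains. The labels give the genotypes as control and RUNX1::ERG, with no treatment in either group, and each group had 2 libraries of poly(A)-enriched RNA. Whether transfected cells were sorted before RNA extraction is not given in the sources used here. The methods give a general time after transfection for expression assays, and no time for these libraries in particular. The genotype was read first from the parts of the fusion. ERG had 4 and 4 counts with the empty vector, and 80443 and 27218 counts with RUNX1::ERG. RUNX1 had 4736 and 3453 counts against 66232 and 28769. After scaling, replicate 1 held 2.52 times as much ERG and 1.96 times as much RUNX1 as replicate 2, and the counts do not separate the plasmid from the cells' own genes. Library totals ran from 59695387 to 82352144 counts, and levels are given as CPM (counts divided by the scaled library total, times 1e6), called normalized CPM. Of the erythroid-type markers of K562, 10 of 10 passed the filter on low counts. Of these, 0 were called by edgeR (adjusted p under 0.05), beside 4.79% of all genes tested, and 5 had an unadjusted p under 0.05. DESeq2 and limma voom each called 1, HBZ (zeta globin), lower. In edgeR its log2 fold change was -0.59, with an adjusted p of 0.05003, just above the threshold. TFRC (-0.57) and KLF1 (-0.12) were also below 0, and 7 of the 10 were above 0. The summed level of these markers was 11984 and 12640 with the empty vector and 14186 and 13102 with RUNX1::ERG. HBE1 was the largest part of this sum.

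ITGA2B and ITGB3 went from low to high expression with RUNX1::ERG. ITGA2B (NCBI gene 3674, GRCh37 chromosome 17, 42449548 to 42467017, minus strand) had 721 and 629 counts with the empty vector and 19338 and 11550 with RUNX1::ERG. In normalized CPM these were 12 and 8.92 against 229 and 161. Both RUNX1::ERG libraries lay far above both empty vector libraries, with means of 10.4 ± 2.16 (SD, n = 2) and 195 ± 48.6 (SD, n = 2). The log2 fold change was 4.22 (SE 0.24), an 18.7-fold rise. ITGB3 (NCBI gene 3690, chromosome 17, 45331193 to 45391109, plus strand) had 208 and 309 counts with the empty vector and 8292 and 6953 with RUNX1::ERG. These were 3.45 and 4.38 normalized CPM against 98.4 and 96.7, with means of 3.92 ± 0.656 (SD, n = 2) and 97.5 ± 1.15 (SD, n = 2). The 2 RUNX1::ERG libraries were nearly equal for ITGB3 and stood well apart from the controls. The log2 fold change was 4.64 (SE 0.20), a 24.8-fold rise. In a bulk sample, more cells expressing these genes and more RNA per cell cannot be told apart. Exons of ITGB3 share 2266 bases with a second annotated protein-coding gene on the same strand, so part of its reads could be assigned to either.

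The 2 RUNX1::ERG libraries differed in the level of the fusion, and ITGA2B differed between them more than ITGB3 did. ITGA2B was 1.43 times as high in replicate 1 as in replicate 2, while ITGB3 was 1.02 times as high. With the empty vector, ITGA2B was also higher in replicate 1 (12 against 8.92 normalized CPM), while ITGB3 was lower there (3.45 against 4.38). With 1 library at each level of ERG, no test of a relation to the level of the fusion is possible.

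**Figure D1:**
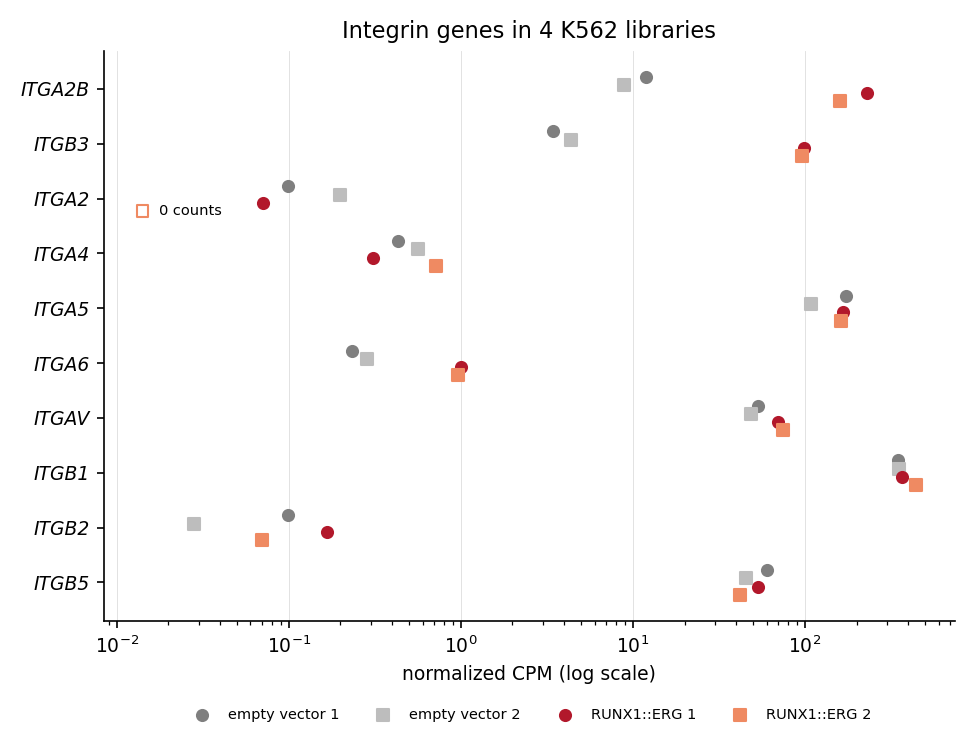
Normalized CPM (log axis) of the 10 integrin genes in each of the 4 libraries, with circles for replicate 1 and squares for replicate 2, grey for the empty vector and red or orange for RUNX1::ERG; the open square marks 0 counts. ITGA2B and ITGB3 moved from 3.45 to 12 normalized CPM up to 96.7 to 229, while ITGA5 and ITGB5 overlapped between the groups.

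The promoter of ITGA2B is shown because this gene rose with a fusion of an Ets and a Runt domain, beside those of ITGA10, another alpha subunit gene that was higher with RUNX1::ERG, and ITGA5, an abundant alpha subunit gene whose groups overlapped. Each sequence runs 5′ to 3′ from 250 bases before to 30 bases after the annotated start, from the RefSeq promoter table on GRCh38.p14, a build other than that of the counts. The positions are chr17:44389620-44389899 for ITGA2B, chr1:145910021-145910300 for ITGA10 and chr12:54419237-54419516 for ITGA5, all on the minus strand. Capitals mark every match on either strand to the Ets core GGAA and to a longer Ets form that contains it, which is spelled GGAAGT. The Runt domain was searched as TGTGGT, its second form was spelled as TGCGGT, and the GATA factors were searched as GATAA.
ITGA2B: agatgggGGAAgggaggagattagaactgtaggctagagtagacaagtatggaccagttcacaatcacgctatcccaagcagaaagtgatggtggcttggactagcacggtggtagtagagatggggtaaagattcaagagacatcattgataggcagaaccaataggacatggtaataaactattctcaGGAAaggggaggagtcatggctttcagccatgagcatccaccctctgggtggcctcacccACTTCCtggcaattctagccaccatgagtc
ITGA10: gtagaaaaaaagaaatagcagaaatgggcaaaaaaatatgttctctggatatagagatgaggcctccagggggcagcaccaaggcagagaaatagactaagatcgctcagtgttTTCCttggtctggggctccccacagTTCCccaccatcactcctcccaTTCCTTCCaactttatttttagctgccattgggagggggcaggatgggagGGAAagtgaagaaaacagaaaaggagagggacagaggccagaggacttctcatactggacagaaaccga
ITGA5: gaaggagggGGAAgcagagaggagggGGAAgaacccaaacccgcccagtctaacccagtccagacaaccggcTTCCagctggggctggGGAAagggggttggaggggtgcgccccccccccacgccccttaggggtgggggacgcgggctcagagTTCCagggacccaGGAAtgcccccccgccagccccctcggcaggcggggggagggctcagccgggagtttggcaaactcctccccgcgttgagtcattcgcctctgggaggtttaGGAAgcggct

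The ITGA2B window held 3 matches to GGAA, at window bases 8, 191 and 253. The last of these lay within a GGAAGT read on the opposite strand, from window base 251, where the annotated transcript begins. The ITGA10 window held 5 matches to GGAA and the ITGA5 window 7, with 0 to GGAAGT in either. GGAAGT was also in windows of 3 of the 10 genes that edgeR did not call, with 2 matches in 1 of the 2 windows of ITGAV, 1 in each of the 2 windows of ITGB1 and 1 in each of 2 of the 3 windows of ITGB5. None of the 3 windows held either Runt form or GATAA. Other spellings of a GATA site were not searched, among them GATAG, which the ITGA2B window contains in lower case. Over the 35116 windows of this length in the table, 94.5% held GGAA, 21.8% GGAAGT, 12.3% TGTGGT, 6.67% TGCGGT and 21.9% GATAA, so these matches are a description of the sequence only. ITGB3 has no entry.

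Of the other 4 alpha genes among the 10 that passed the filter, ITGA6 had the largest fitted fold change and ITGA5 the highest normalized CPM. ITGA6 (NCBI gene 3655), the laminin-binding alpha subunit, had 14 and 20 counts with the empty vector and 85 and 69 with RUNX1::ERG. These were 0.232 and 0.284 against 1.01 and 0.96 normalized CPM, so that the groups did not overlap at a low level. The log2 fold change was 1.92 (SE 0.49). ITGAV (NCBI gene 3685), which pairs with both ITGB3 and ITGB5 in vitronectin receptors, was at 53.7 and 48.8 normalized CPM with the empty vector and 69.9 and 75.1 with RUNX1::ERG. Its groups did not overlap either, and its log2 fold change was 0.50 (SE 0.16).

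ITGA5 (NCBI gene 3678), the alpha subunit of the fibronectin receptor, was at 173 and 108 normalized CPM against 168 and 161. The RUNX1::ERG libraries lay between the 2 empty vector libraries, and the log2 fold change of 0.23 (SE 0.21) was within that spread. It was 0.60 without empty vector replicate 1 and -0.08 without empty vector replicate 2. ITGA4 (NCBI gene 3676), part of the VCAM1 receptor, was at 0.432 and 0.567 against 0.308 and 0.723 normalized CPM, from 26 to 52 counts per library. Its exons share 2813 bases with CERKL, a protein-coding gene on the opposite strand, so part of these few reads could belong to either. The groups of ITGA4 overlapped, with a log2 fold change of 0.04 (SE 0.57). Leaving out RUNX1::ERG replicate 2 gave -0.71, and leaving out RUNX1::ERG replicate 1 gave 0.53. ITGA2 (NCBI gene 3673), a collagen receptor subunit of platelets, had 6 and 14 counts with the empty vector and 6 and 0 with RUNX1::ERG. It did not pass the filter on low counts, and the last value allows up to 3 counts, or 0.0419 CPM. This limit covers counting error only and takes the counts as independent. It would be higher if both mates of a pair were counted.

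The remaining beta subunits differed much less between the groups than ITGB3. ITGB1 (NCBI gene 3688), the common partner of many alpha subunits, was at 348 and 351 normalized CPM with the empty vector and 369 and 443 with RUNX1::ERG. The groups did not overlap, although RUNX1::ERG replicate 1 lay close to the controls. The log2 fold change was 0.22 (SE 0.15), and 0.07 without RUNX1::ERG replicate 2. ITGB5 (NCBI gene 3693) was at 60.6 and 45.7 against 53.7 and 42 normalized CPM, with overlapping groups and a log2 fold change of -0.15 (SE 0.20). ITGB2 (NCBI gene 3689), the leukocyte beta subunit, had 6 and 2 counts against 14 and 5 and did not pass the filter.

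Of the 10 genes, 8 passed the filter, and 2 of these, ITGA2B and ITGB3, were called higher (adjusted p under 0.05, quasi-likelihood test of edgeR, adjusted over all genes). Over the 15394 genes tested, 4.79% were called, 3.64% higher and 1.15% lower. The 10 genes were selected on this same contrast, so nothing is read from their count. In 5 of the 8, both RUNX1::ERG libraries lay above both empty vector libraries, as in 25.1% of all genes tested, and in 0 of the 8 both lay below, as in 22.1% of all genes. ITGA6 changed sides of the threshold with the method and was called under the DESeq2 Wald test, without a filter on low counts, with DESeq2 size factors, with at least 10 counts in every library, with halved counts, with the replicate block and without empty vector replicate 2. ITGAV was called with the replicate block.

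Levels of different genes were compared per kilobase (kb) of exon. With the empty vector the leading alpha subunit gene was ITGA5, at 23.5 and 14.6 normalized CPM per kb. It was followed by ITGAV at 2.78 and 2.53, then ITGA2B at 2.1 and 1.57 and ITGAE at 1.81 and 1.84, of which the last pair overlapped. With RUNX1::ERG, ITGA2B came first, at 40.3 and 28.2 normalized CPM per kb, above ITGA5 at 22.7 and 21.8. ITGA2B thus went from 7.13% ± 0.423 (SD, n = 2) to 53% ± 5.57 (SD, n = 2) of the summed level of the 18 alpha genes. The same share was 53.3% with the longest transcript as the length.

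Among the beta genes, ITGB1 led in each library, at 23.9 and 24.1 normalized CPM per kb with the empty vector and 25.3 and 30.5 with RUNX1::ERG. ITGB3 stood at 0.506 and 0.642 with the empty vector, below ITGB5 at 9.31 and 7.01. With RUNX1::ERG it was at 14.4 and 14.2, above ITGB5 at 8.25 and 6.44. Its share of the summed level of the 8 beta genes went from 1.72% ± 0.382 to 28.5% ± 1.52 (SD, n = 2). The size of this share depended on the length used, and with the longest transcript it went from 0.87% to 16.4%, because the annotated exons of ITGB1 together are 14561 bases long and its longest transcript 5614. The level of ITGA2B per kb was 2.8 and 1.99 times that of ITGB3 with RUNX1::ERG, and 4.16 and 2.44 times with the empty vector. With the longest transcript these ratios were 3.98 and 2.84 against 5.92 and 3.48. By either length the ratios overlapped between the groups. The summed level of the alpha genes was 2.47 times, and that of the beta genes 1.49 times, as high with RUNX1::ERG. With the longest transcript these were 2.5 and 1.32 times.

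**Figure D2:**
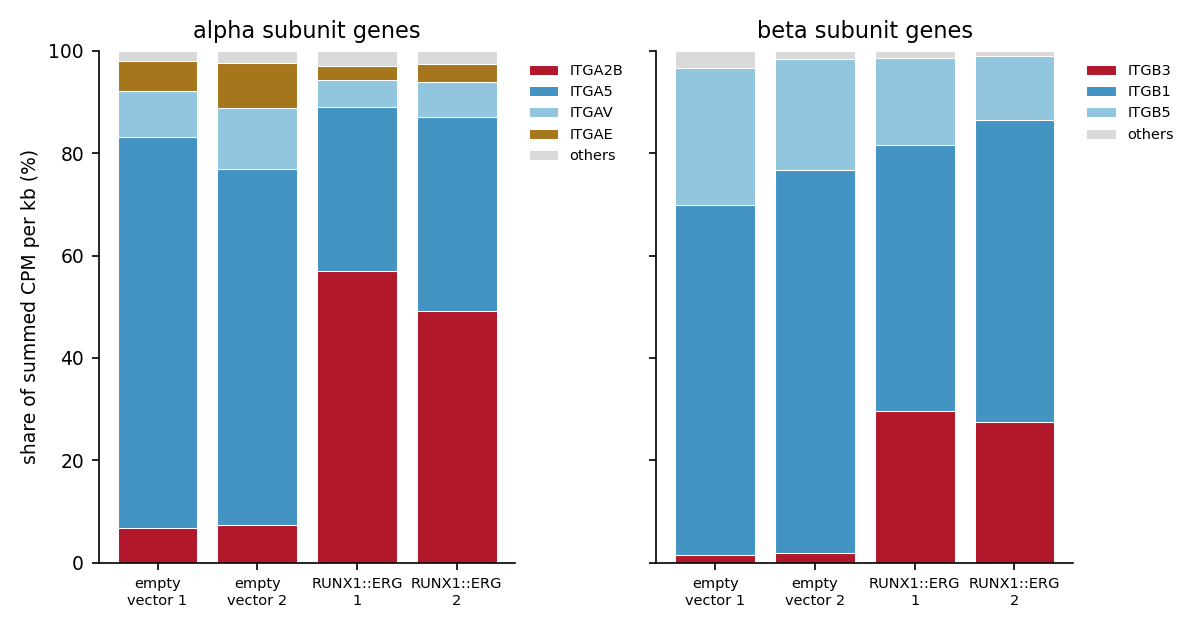
Share (%) of each gene in the summed normalized CPM per kb of exon over the 18 alpha (left) and 8 beta (right) subunit genes, 1 bar per library. ITGA2B filled 57% and 49.1% of the alpha sum and ITGB3 29.6% and 27.4% of the beta sum in the RUNX1::ERG libraries, against 6.83% and 7.43%, and 1.45% and 1.99%, with the empty vector.

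Of the 16 other integrin genes, 11 passed the filter and 2 rose, both at low levels, beside 3.64% called higher over all genes tested. ITGA10 (NCBI gene 8515), a collagen-binding alpha subunit known from cartilage, was at 0.415 and 0.397 normalized CPM with the empty vector and 5.04 and 3.8 with RUNX1::ERG. Its log2 fold change was 3.44 (SE 0.37, adjusted p = 0.00049, edgeR). ITGAX (NCBI gene 3687), the CD11c subunit of myeloid cells, was at 0.249 and 0.0709 against 2.34 and 0.821. Its log2 fold change was 3.32 (SE 0.70, adjusted p = 0.023, edgeR), and 2.37 with an adjusted p of 0.25 without RUNX1::ERG replicate 1. It was 4.45 without empty vector replicate 1 and 2.66 without empty vector replicate 2. ITGAX pairs with ITGB2, which had at most 14 counts in a library. For ITGA7, a laminin-binding subunit, the log2 fold change was 1.12 (adjusted p = 0.089, edgeR), and for ITGB7, found on lymphocytes, it was -1.57 (adjusted p = 0.099). Both passed the threshold with the DESeq2 Wald test (adjusted p = 0.031 and 0.03), without the filter and with the replicate block. ITGA7 also passed it without empty vector replicate 1, at 1.34, but was at 0.84 (adjusted p = 0.55) without RUNX1::ERG replicate 1. ITGB7 passed it without empty vector replicate 2, at -2.14, but was at -0.64 (adjusted p = 0.55) without empty vector replicate 1, the library in which it was highest. The other 7 had log2 fold changes of 1.86 for ITGA9, 0.70 for ITGB4, 0.42 for ITGA3, 0.23 for ITGAD, 0.14 for ITGAE, 0.11 for ITGAL and -0.99 for ITGAM, with adjusted p-values from 0.25 to 0.97 (edgeR). ITGA9 was called at 3.30 without empty vector replicate 1, but was at 1.11 (adjusted p = 0.49) without empty vector replicate 2 and at 0.87 (adjusted p = 0.86) without RUNX1::ERG replicate 1. The median over the 11 was 0.42, beside 0.00 over all genes tested. Exons of ITGB7 share 1881 of their 4451 bases with ZNF740, a protein-coding gene on the opposite strand, so part of its reads could belong to either.

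**Figure D3:**
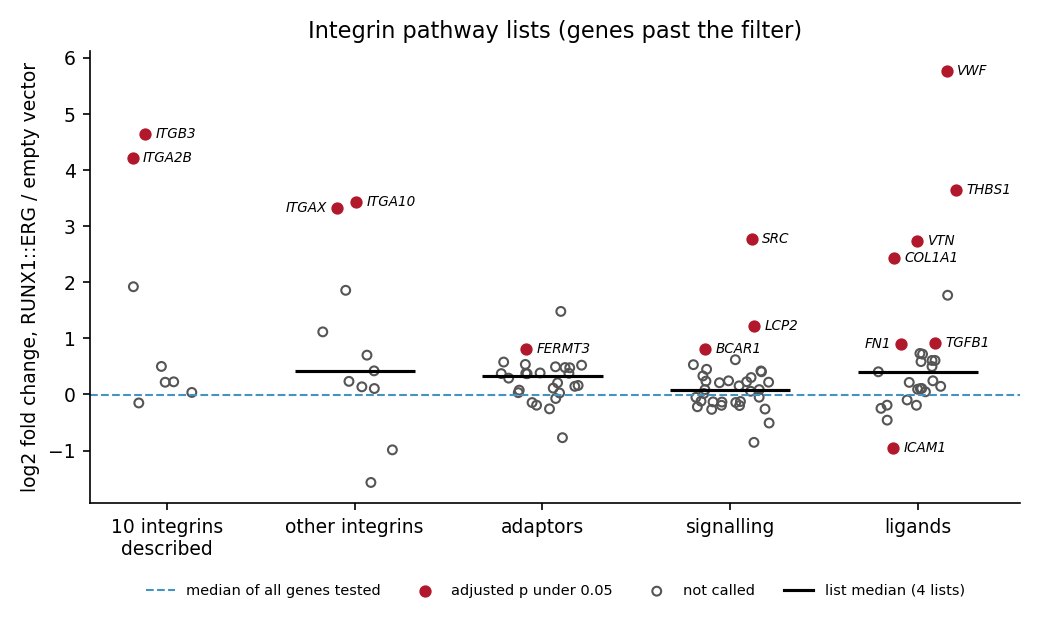
Log2 fold change (RUNX1::ERG over empty vector) of the genes that passed the filter, 1 point per gene, in 5 lists; filled points had an adjusted p under 0.05 (edgeR), black lines are medians of 4 of the lists and the dashed line is the median of all genes tested. Filled points lie above 0 except ICAM1, at -0.95.

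Genes that act on integrin tails inside the cell rose in 1 case. Of 31 adaptors and regulators, 26 passed the filter, 1 rose and 0 fell in edgeR, beside 3.64% and 1.15% of all genes, and the median log2 fold change was 0.33. At an unadjusted p under 0.05 there were 8 higher and 1 lower, DESeq2 called 2 higher and 1 lower, and voom 1 higher. The gene that rose was FERMT3, which encodes kindlin-3, the kindlin of blood cells that activates integrins by binding beta tails. It was at 402 and 379 normalized CPM with the empty vector and 760 and 618 with RUNX1::ERG. Both RUNX1::ERG libraries were above the controls, with a log2 fold change of 0.82 (SE 0.15, adjusted p = 0.013, edgeR). Without RUNX1::ERG replicate 1 it was 0.66, with an adjusted p of 0.13. TLN1, which encodes talin, had a log2 fold change of 0.54 (adjusted p = 0.059, edgeR) and passed the threshold in the DESeq2 Wald test, with library totals as the scaling, without the filter and with the block. The others that were not called ran from -0.77 for TNS1 to 1.48 for TNS3.

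Of 38 genes that signal after ligand binding, 34 passed the filter. In edgeR 3 rose and 0 fell, beside 3.64% and 1.15% of all genes, and the median log2 fold change was 0.09. At an unadjusted p under 0.05 there were 8 higher and 1 lower, and DESeq2 called 1 lower. SRC, the kinase that sits on the tail of ITGB3 and starts outside-in signalling in platelets, was at 11.8 and 9.46 normalized CPM with the empty vector and 81.8 and 63.1 with RUNX1::ERG. Its log2 fold change was 2.77 (SE 0.21, adjusted p = 5.8e-05, edgeR). LCP2, which encodes the adaptor SLP-76, went from 15.5 and 19.1 to 40.7 and 40.5 normalized CPM, a log2 fold change of 1.23 (SE 0.19, adjusted p = 0.0044, edgeR). BCAR1, the SRC substrate p130Cas, was at 35.7 and 46.2 against 79.5 and 65, a log2 fold change of 0.82 (SE 0.19, adjusted p = 0.035, edgeR). BCAR1 rested on 2 libraries, with 0.64 (adjusted p = 0.079) without empty vector replicate 1 and 0.67 (adjusted p = 0.2) without RUNX1::ERG replicate 1. The other SRC family members were not called, with log2 fold changes of 0.41 for FYN, -0.05 for YES1 and -0.22 for LYN. SYK was at 0.23 and the focal adhesion kinase PTK2 at -0.13, also not called.

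Ligand genes held the most calls of these lists. Of 43, 27 passed the filter, 6 rose and 1 fell, beside 3.64% and 1.15% of all genes, and the median was 0.40. VWF, the platelet adhesion protein von Willebrand factor, had 1 and 8 counts with the empty vector and 311 and 277 with RUNX1::ERG (adjusted p = 4e-04, edgeR). Its fitted log2 fold change of 5.76 (SE 0.58) rests on those few control counts, and it was 5.03 without empty vector replicate 1 and 7.68 without empty vector replicate 2. THBS1, thrombospondin-1, was at 1.44 and 2.5 normalized CPM against 23.4 and 26.2, a log2 fold change of 3.65 (SE 0.29, adjusted p = 7.3e-05, edgeR). VTN, vitronectin, was at 0.432 and 0.666 against 3.87 and 3.48, a log2 fold change of 2.73 (SE 0.38, adjusted p = 0.0024, edgeR). These 3 proteins bind ITGB3 integrins.

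COL1A1, the alpha 1 chain of type I collagen, was at 4.13 and 3.62 normalized CPM against 22 and 19.6, a log2 fold change of 2.42 (SE 0.22, adjusted p = 2e-04, edgeR). Its partner chain COL1A2 was at 0.11 and was not called. FN1, fibronectin, had a log2 fold change of 0.91 (SE 0.22, adjusted p = 0.044, edgeR), and 0.54 (adjusted p = 0.32) without RUNX1::ERG replicate 2. TGFB1, whose latent form is released by ITGAV integrins, was at 0.92 (SE 0.21, adjusted p = 0.034, edgeR), and at 0.53 (adjusted p = 0.28) without RUNX1::ERG replicate 1. ICAM1, a ligand of the leukocyte integrins, fell from 39.5 and 36.6 to 21.2 and 18.1 normalized CPM, a log2 fold change of -0.95 (SE 0.18, adjusted p = 0.015, edgeR). Without RUNX1::ERG replicate 2 its adjusted p was 0.052. The fibrinogen chain genes FGA, FGB and FGG had at most 25 counts in a library.

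**Figure D4:**
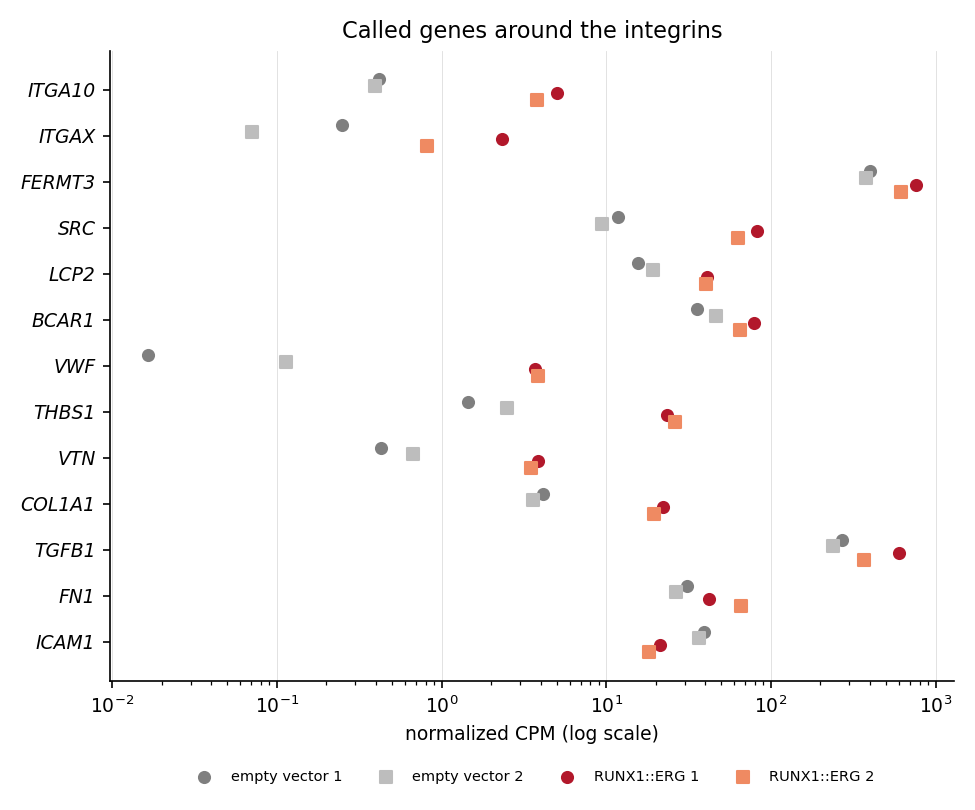
Normalized CPM (log axis) in each library of the genes that had an adjusted p under 0.05 among the other integrins, adaptors, signalling genes and ligands. In each gene the 2 RUNX1::ERG libraries lie on one side of the 2 empty vector libraries, with SRC between 63.1 and 81.8 against 9.46 and 11.8.

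Markers of other cell types were read beside these rises. Over all genes tested, 3.64% were called higher and 1.15% lower. Of 12 megakaryocyte and platelet markers, 5 passed the filter and 3 rose, PF4, PPBP and TUBB1, while GP1BA and GP6 were not called. PF4 had 0 and 2 counts with the empty vector and 874 and 555 with RUNX1::ERG. PPBP had 2 and 6 counts against 1553 and 1462. PF4 and PPBP passed the filter only through the RUNX1::ERG libraries, so nothing is read from their calls. The summed level of the 12 was 90.7 and 93.2 normalized CPM with the empty vector and 206 and 206 with RUNX1::ERG. TUBB1 and GP6 made up most of this sum. The glycoprotein genes GP9 and GP1BB, which form the platelet von Willebrand factor receptor with GP1BA and GP5, had at most 2 and 0 counts in a library. Of 6 monocyte and macrophage markers, 2 passed the filter and both rose, CD14 and LYZ. The summed level of the 6 was 7.9 and 10.5 against 22.2 and 20.8. Below the filter, FCGR3A went the other way, with 42 and 10 counts against 8 and 3. CSF1R had 3 and 3 counts against 18 and 4, and CD163 and MARCO had 0 in each library. Of 4 endothelial markers, 2 passed the filter and PECAM1, also found on platelets, rose, at a log2 fold change of 2.96. CDH5 was also at 2.96, from 0 and 4 counts against 27 and 12, and was not called (adjusted p = 0.15, edgeR). TEK and KDR had at most 2 counts. The sums of the 4 were 3.22 and 3.03 against 23.7 and 25. Of 6 fibroblast markers, 2 passed the filter and COL1A1 rose, with sums of 6.23 and 6.35 against 24.8 and 22.1 and with LUM at 0. Of the 4 T cell and 3 B cell markers, 4 passed the filter and 0 were called by edgeR, with 2 at an unadjusted p under 0.05. DESeq2 called 1 T cell marker higher and 1 lower, and voom called 0. The part of other cells in the integrin values was not tested.

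The genes beside ITGA2B and ITGB3 on chromosome 17 had smaller log2 fold changes than the pair. As the pair was chosen for its rise, nothing is read from that difference. Of 11 tested genes that start within 200 kb of the ends of ITGA2B, 2 were called higher, beside 3.64% of all genes tested. Of 4 near ITGB3, 0 were called by edgeR, DESeq2 or voom, with 1 at an unadjusted p under 0.05. The called genes were the nearest tested ones. FAM171A2, whose start lies at -25.8 kb from that of ITGA2B (towards lower positions), had a log2 fold change of 1.22 (SE 0.30, adjusted p = 0.047, edgeR). GRN, which encodes progranulin and starts at -44.4 kb, was at 0.78 (SE 0.19, adjusted p = 0.044, edgeR). Without RUNX1::ERG replicate 1 these were 0.83 and 0.55, with adjusted p-values of 0.44 and 0.29, and GRN also lost its call without empty vector replicate 2 (0.64, adjusted p = 0.074). Both were not called with library totals as the scaling (adjusted p = 0.061 and 0.052). The erythroid band 3 gene SLC4A1, at -121.5 kb, was at -0.59 (adjusted p = 0.17). Near ITGB3, log2 fold changes ran from -0.51 for MRPL45P2 to 0.59 for EFCAB13.

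**Figure D5:**
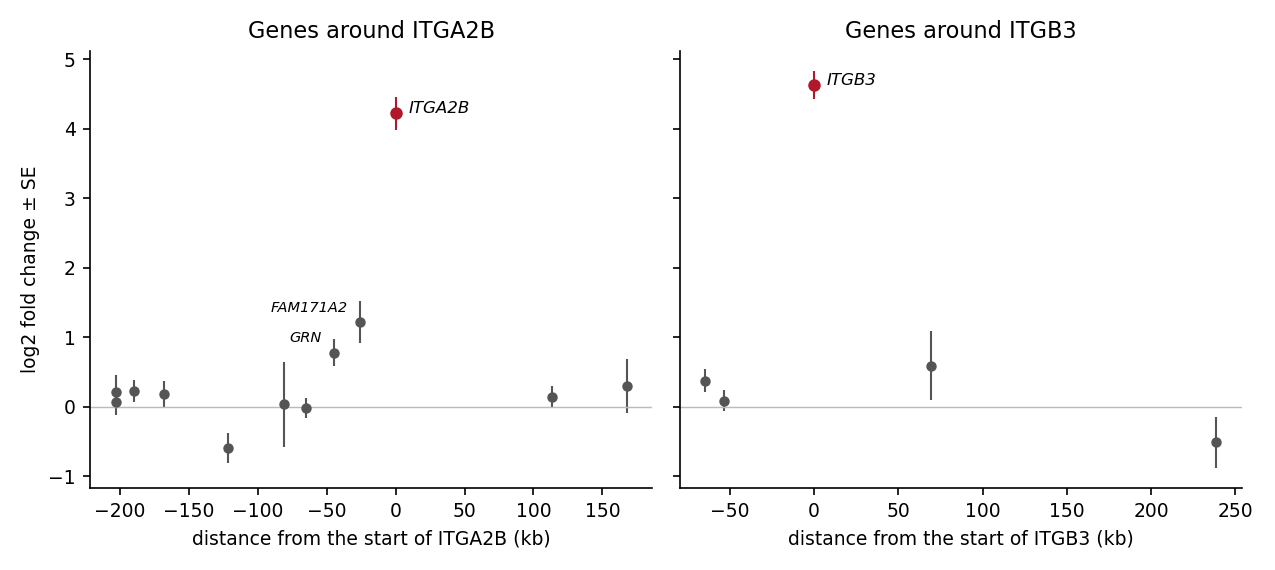
Log2 fold change ± SE of the tested genes around ITGA2B (left) and ITGB3 (right) against the distance of their start from that of the integrin gene in kb, negative towards lower chromosome positions. ITGA2B at 4.22 and ITGB3 at 4.64 stand above the 15 neighbours, which run from -0.59 to 1.22.

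Genes with a pattern like that of the pair were ranked by the root mean square difference of log2 normalized CPM over the 4 libraries, each gene centred on its mean, among 10124 genes with a mean of at least 5 CPM. ADGRG1, an adhesion G protein-coupled receptor, was nearest to ITGA2B, at 0.20. It was followed by PAK6 at 0.33, AKAP12 at 0.37, CCL5 at 0.38 and ITGB3 at 0.39. For ITGB3 the nearest was PAK6, a p21-activated kinase, at 0.18, followed by ADGRG1 at 0.37, ITGA2B at 0.39, and SHANK3 and AKAP12 at 0.44. With 4 libraries in 2 groups this measure mainly ranks genes by the size of their rise.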

How the data were processed

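Poly(A)-enriched RNA of K562 cells was sequenced as paired-end reads. The files deposited by the authors hold unnormalized counts for each NCBI gene number, 1 file per library. Their methods name hg19, and the submitters' processing notes list HISAT2 2.2.1 and featureCounts 2.0.1. The annotation and strand setting are not given in the sources used here, so reads of overlapping or antisense genes may be shared. Of counts from 1 to 10, 66.7% to 68.9% were even, as when both mates of a pair are counted, so independent fragments number fewer than the counts.

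Gene numbers were matched to symbols in a RefSeq table of GRCh38.p14 (92.2% of 25702). Positions and exon lengths are from GENCODE v44 on GRCh37. In R 4.3.3, genes that passed filterByExpr (15394) were scaled by TMM and fitted with edgeR 4.0.16, and its quasi-likelihood p-values were adjusted by Benjamini-Hochberg, with calls at 0.05. The SE is the log2 fold change divided by the square root of F. The labels call the libraries replicates, and a figure legend of the study calls them biological replicates. With 2 against 2, p-values rest on the spread edgeR estimates across genes. The procedure was tested on simulated data.

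The genes, lists and tests were chosen with earlier results of these data known. Named were the 10 integrins, RUNX1 and ERG, the other integrins that passed the filter, called genes of the other lists, tested genes starting within 200 kb of the ends of ITGA2B or ITGB3, and the 5 genes most like each. Other genes named after their values were seen are TLN1, TNS1, TNS3, FYN, YES1, LYN, SYK, PTK2, COL1A2, the fibrinogen genes and markers that edgeR did not call, among them HBZ. Alternatives were other scalings and filters, DESeq2 1.42.0, limma 3.58.1 voom, a replicate block, halved counts, another gene length and leaving out each library, where the lone library of a group is assumed to vary like the other group.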

Additional observations from a re-analysis of the deposited data

How the results depend on the processing

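ITGA2B and ITGB3 were higher under every alternative, with log2 fold changes from 3.94 to 4.45 and from 4.47 to 4.82 when 1 library was left out, which were also their extremes over all alternatives run. The called genes among the 10 integrins numbered 4 with the replicate block, which added ITGA6 and ITGAV, and 2 to 3 with a library left out. Over all genes, 1500 were called without a filter, 1204 with the DESeq2 Wald test, 1733 with the replicate block and 286 to 1336 with a library left out (lowest without RUNX1::ERG replicate 1, highest without empty vector replicate 2), against 737. Among the other integrins 4 were called without a filter, 4 with the DESeq2 Wald test, 4 with the block, 1 with at least 10 counts in every library, and 1 to 4 with a library left out, against 2. Among the adaptors 3 were called with library totals, 2 without a filter, 3 with DESeq2, 6 with the block and 0 to 4 with a library left out, against 1. For signalling genes 7 were called with the block and 2 to 4 with a library left out, against 3, and for ligands 5 to 9 with a library left out, against 7. The share of ITGB3 among beta genes was 16.4% with the longest transcript. As a check of pairing, the deviations from the group means in libraries of equal number had a correlation of 0.26 across genes. With 2 pairs and no label tying a number to a batch, they share only a number, and the block is given as an alternative. With all libraries kept, ITGA4 changed sign with limma voom (-0.10) and the replicate block (-0.039), and ran from -0.71 to 0.53 with a library left out. SLC25A39 changed sign with library totals (0.025) and ran from -0.11 to 0.057 with a library left out. Others that changed sign with a library left out were ITGA5 (-0.078 to 0.60), ITGB5 (-0.34 to 0.063), UBTF (-0.075 to 0.49), ITGAL (-0.46 to 0.97), RUNDC3A (-0.55 to 0.99), ITGA3 (-0.13 to 0.96), ITGAD (-0.35 to 0.62), FZD2 (-0.14 to 0.61) and TMUB2 (-0.094 to 0.20). The cause was not tested. The lowest counts among the 10 integrins were those of ITGA2, ITGA4, ITGA6 and ITGB2, with at most 85 in a library, and with halved counts ITGA6 was at 1.94 and ITGA4 at 0.028.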

Other observations

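Integrin genes that did not pass the filter on low counts were nearly silent in K562 cells. ITGB8, a beta subunit that pairs with ITGAV and activates latent TGF-beta, had 0 and 0 counts with the empty vector and 8 and 10 with RUNX1::ERG. ITGA11, a collagen-binding subunit, had 0 and 0 against 3 and 5 counts. ITGA1, another collagen-binding subunit, had 4 and 6 against 11 and 6 counts. ITGA8 had at most 1 count in a library and ITGB6 had 0 in each. None of these genes entered the edgeR test with the filter. Without the filter, ITGB8, ITGA11, ITGA1 and ITGA8 were tested and were not called.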
